A study of Mus musculus with 10 samples.

Results

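The genes described here are the G1 cyclins, the kinases they bind, the transcription factor they release and the INK4 inhibitors that oppose them. They were taken by symbol from the deposited count table: Ccnd1, Ccnd2 and Ccnd3 (D-type cyclins), Cdk4 and Cdk6 (their kinases), Ccne1 and Ccne2 (E-type cyclins), E2f1, Cdkn2a and Cdkn2b. All 10 were found among the 24421 genes of the table. D-type cyclins bind CDK4 or CDK6 in G1, and the complexes phosphorylate the retinoblastoma protein RB, which then lets go of E2F factors. E2F in turn drives the E-type cyclins and the genes of DNA replication, while the INK4 proteins block CDK4 and CDK6. In human squamous lung cancer, loss of CDKN2A and gain of the region around CCND1 are well known, which is general background and not a result of these libraries.

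The libraries came from lung of wild-type NIH Swiss mice, 5 from normal lung of animals with no treatment and 5 from squamous cell carcinoma (SCC) of animals given NTCU, a nitrosourea carcinogen that produces this tumour in mice. Tissue regions were cut by laser capture from fixed, paraffin-embedded sections, and total RNA was sequenced after stranded library preparation for picogram inputs. Age, sex, dose and the animal behind each library were not given in the sources used here. Libraries of a group may therefore share an animal, in which case the p-values below are too small, and they measure only the spread between these libraries.

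Total counts ran from 1004105 to 6817106 per library. The labelled tissues matched their markers: the summed level of 12 squamous and basal cell genes was 10.8 to 37.0 CPM (counts scaled to a common library total of 1e6) in normal lung and 1051 to 6577 in SCC, and 9 alveolar type 2 genes summed to 7536 to 10797 CPM in normal libraries and 487 to 907 in those of SCC. Krt6a and Dsg3, a keratin and a desmosomal cadherin of squamous epithelium, had no count in normal lung. The SCC libraries fell into separate sets by counts on 1455 olfactory, vomeronasal and trace amine receptor genes, which lung is not known to use. This receptor signal reached 3.26, 3.3 and 3.52 CPM per kb of coding length in SCC 1, SCC 3 and SCC 4, against 0.591 in SCC 2, 0.418 in SCC 5 and at most 0.207 in normal lung. Taken as a background in proportion to gene length, it came to 19.5%, 22.3% and 23% of all counts in SCC 1, SCC 3 and SCC 4, to 3.89% in SCC 2 and to 2.69% in SCC 5. Results are therefore also given for SCC 2 and SCC 5 alone against the 5 normal libraries, and after subtraction of that background.

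Of the 10 genes, 8 passed the filter on low counts and 2, Ccne1 and Ccne2, did not. Calls were made with edgeR's quasi-likelihood test over 13203 genes, at an adjusted p (Benjamini-Hochberg) below 0.05, and on that rule 12.5% were called higher and 8.68% lower in SCC. Ccnd3 was called lower, and none of the 8 was called higher. Ccnd2 had an edgeR p of 0.028 before adjustment, and the share of all genes under that looser rule was not counted. With SCC 2 and SCC 5 as the SCC group, Ccnd1 and Ccnd2 were called higher among 9 tested genes of the set and none was called lower, where 4.14% of all genes were called higher and 5.16% lower. After background subtraction Ccnd1 and Ccnd2 were called higher among 8 and again none was called lower, where 8.03% and 6.79% of all genes were called. Other settings called further genes of the set higher. Upper-quartile factors called Ccnd2 (14.9% of all genes called higher), the receptor signal as a covariate called Ccnd2 and Cdk6 (3.53%), the DESeq2 Wald test called Ccnd2 and Ccne1 (27.5%), and limma-voom with quality weights called E2f1 and Cdkn2a (24.7%). Cdkn2a was called without normal 1 (12.4%), E2f1 without normal 4 (also 12.4%) and Ccnd2 without SCC 3 (9.5%). In those fits Cdkn2a and E2f1 passed the filter on low counts only or mainly through SCC libraries. The median log2 fold change of the 8 tested genes was 0.75, beside 0.07 for all tested genes.

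**Figure D1:**
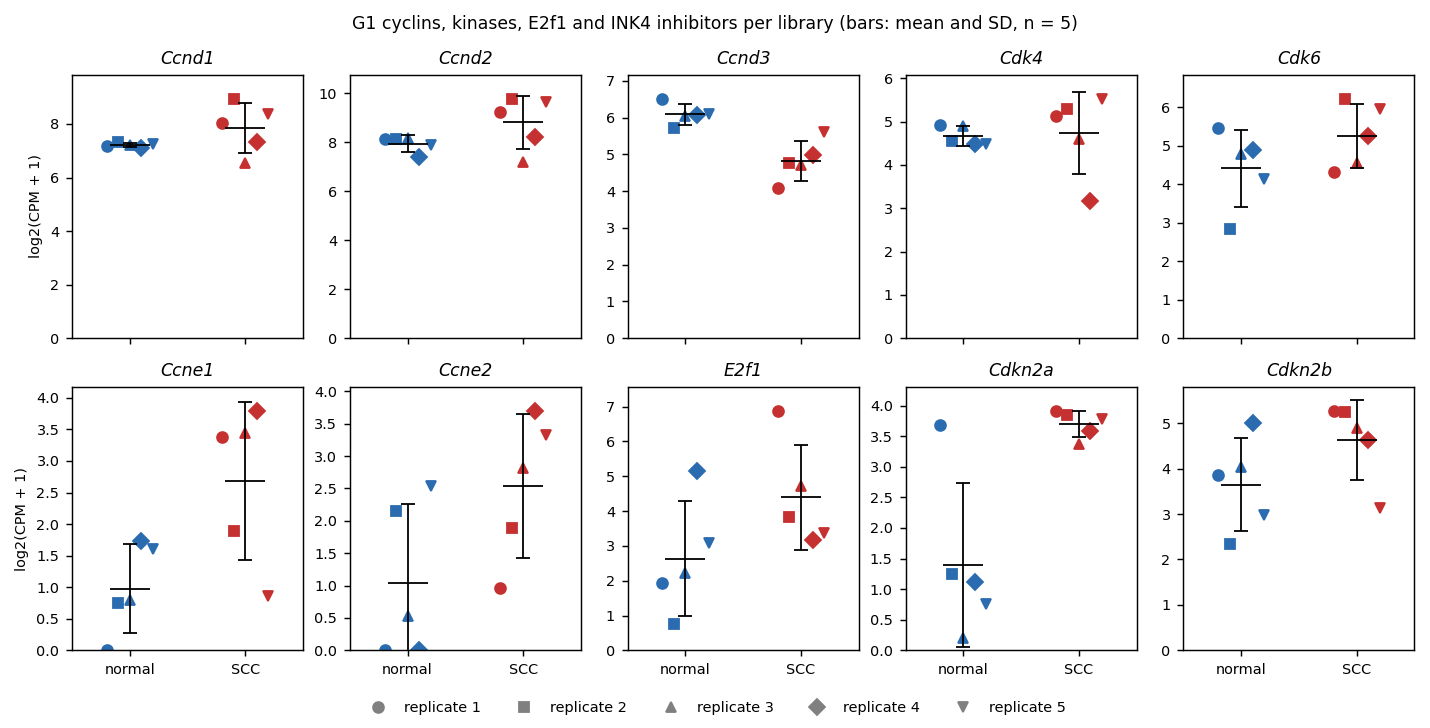
Level of each gene in each library as log2(CPM + 1), with normal lung in blue, SCC in red, 1 symbol per replicate number (numbers do not pair libraries), and the mean with its SD in black (n = 5 each); vertical axes differ between panels. Ccnd3 is the gene whose groups do not overlap, and Ccnd1 is tight in normal lung and spread out in SCC.

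Ccnd1 encodes cyclin D1 (chromosome 7, 144929931 to 144939925, minus strand, GRCm38). It read 145, 159, 147, 137 and 152 CPM in the normal libraries, in the order of their numbers, and 264, 494, 91.4, 160 and 332 CPM in the SCC libraries. SCC 1, SCC 2 and SCC 5 stood well above normal lung, SCC 4 exceeded its highest library by a small margin, and SCC 3 lay below all normal libraries. In SCC 4 (160 against 159 CPM in normal 2) the estimated background of 13.1 CPM was larger than the margin. The coefficient of variation was 5.51% in normal lung and 58.3% in SCC. The fitted log2 fold change was 0.73 (SE 0.40, n = 5 each, edgeR adjusted p = 0.206), which did not pass the test. Against SCC 2 and SCC 5 alone the log2 fold change was 1.34 (SE 0.30, edgeR adjusted p = 0.00492), and after background subtraction it was 1.03 (edgeR adjusted p = 0.0484). Background by length made up 1.87% of the Ccnd1 counts in SCC. Under limma-voom with quality weights the direction turned, to a log2 fold change of -0.18 (adjusted p = 0.653).

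Ccnd2 encodes cyclin D2 (chromosome 6, 127125162 to 127152193, minus strand). Its levels were 281, 284, 285, 167 and 237 CPM in normal lung and 599, 884, 145, 296 and 799 CPM in SCC. The SCC libraries ranked in the same order as for Ccnd1, with SCC 2 highest, then SCC 5, SCC 1, SCC 4 and SCC 3. Again 4 of 5 SCC libraries exceeded the highest normal library and SCC 3 lay under the lowest. In SCC 4 (296 against 285 CPM in normal 3) the estimated background of 23.6 CPM was larger than the margin. The log2 fold change was 1.01, or 2.02-fold (SE 0.43, n = 5 each, edgeR adjusted p = 0.102). It became 1.18 without SCC 3 (edgeR adjusted p = 0.049), 1.63 with SCC 2 and SCC 5 alone (SE 0.29, edgeR adjusted p = 0.000689) and 1.30 after background subtraction (edgeR adjusted p = 0.0257). Ccnd2 also passed the DESeq2 Wald test (log2 fold change 1.06, adjusted p = 0.0458), whereas limma-voom gave -0.08 (adjusted p = 0.855).

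Ccnd3 encodes cyclin D3, the D-type cyclin best known from lymphocytes and differentiating cells (chromosome 17, 47505051 to 47599691, plus strand). It stood at 90.9, 51.9, 65.4, 66.7 and 67.2 CPM in normal lung and at 16.0, 26.0, 25.3, 30.9 and 47.4 CPM in SCC. All 5 SCC libraries lay below all 5 normal libraries, a separation with SCC below that 5.77% of the tested genes showed. Ccnd3 fell by 1.32 on the log2 scale, to 0.401 of the normal level (SE 0.40, n = 5 each, edgeR adjusted p = 0.019). The call held without each library in turn, with adjusted p from 0.00283 to 0.0408 (edgeR). It was lost with SCC 2 and SCC 5 alone (log2 fold change -1.0, edgeR adjusted p = 0.22), after background subtraction (-1.20, edgeR adjusted p = 0.0856) and with the receptor signal as a covariate (-0.49, edgeR adjusted p = 0.76).

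Lymphocyte markers overlapped between the groups. The sum of 9 T and NK cell genes was 129 to 268 CPM in normal libraries and 69.3 to 330 in those of SCC. None of the 6 tested was called by edgeR. The sum of 7 B and plasma cell genes was 32.0 to 131 and 69.7 to 122 CPM. Of the 5 tested, Jchain, a plasma cell gene named after its value was seen, was called higher (log2 fold change 1.52, edgeR adjusted p = 0.0297). It was the only 1 of the 5 with a positive log2 fold change, and their median was -0.59. Endothelial markers went from 2302 to 3708 CPM in normal lung to 129 to 292 in SCC, with 9 of 10 called lower, and 9 of 9 alveolar type 2 genes were called lower, with no marker of either list at 0 in all SCC libraries. Over all tested genes, 12.5% were called higher and 8.68% lower. The part of these cell types in the Ccnd3 result was not tested. In bulk regions, fewer cells of a type and less RNA per cell cannot be told apart. Bysl, a ribosome assembly gene on the other strand, shares 361 exon bases with Ccnd3, and the strand setting of the counting was not given in the sources used here. Bysl read 6.80 to 20.6 CPM in normal lung and 13.5 to 55.8 CPM in SCC (log2 fold change 1.21, SE 0.56, edgeR adjusted p = 0.133), the opposite direction to Ccnd3.

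Levels can be compared between genes only per length, so the D-type cyclins were also expressed as CPM per kb of exon. Their sum was 88.8 to 118 CPM per kb in normal lung and 166, 274, 56.4, 99.6 and 227 in SCC 1 to SCC 5. Ccnd3 made up 31.6%, 20.0%, 24.6%, 30.7% and 26.6% of that sum in the normal libraries, and 3.94%, 3.87%, 18.4%, 12.7% and 8.52% in SCC 1 to SCC 5. Ccnd3 was the smallest share in every SCC library, and also in every normal library except normal 4, where Ccnd2 was smaller (28.0% against 30.7%). Every SCC share of Ccnd3 lay under every normal share. Ccnd2 contributed 28.0% to 39.8% in normal libraries and 38.3% to 53.6% in those of SCC, and Ccnd1 32.9% to 41.3% and 39% to 48.1%. The ratio of Ccnd2 to Ccnd1 overlapped, at 0.676 to 1.08 in normal libraries and 0.883 to 1.34 in those of SCC. The ratio of Ccnd1 to Ccnd3 was 1.04 to 2.01 in normal libraries and 2.36 to 12.4 in those of SCC, with SCC 3 and SCC 4 nearest to normal lung at 2.36 and 3.40. These shares and ratios include the background by length. It was estimated at 49.7%, 31.9% and 27.9% of the Ccnd3 counts in SCC 1, SCC 3 and SCC 4. In SCC 2 and SCC 5 it was 5.56% and 2.16%.

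**Figure D2:**
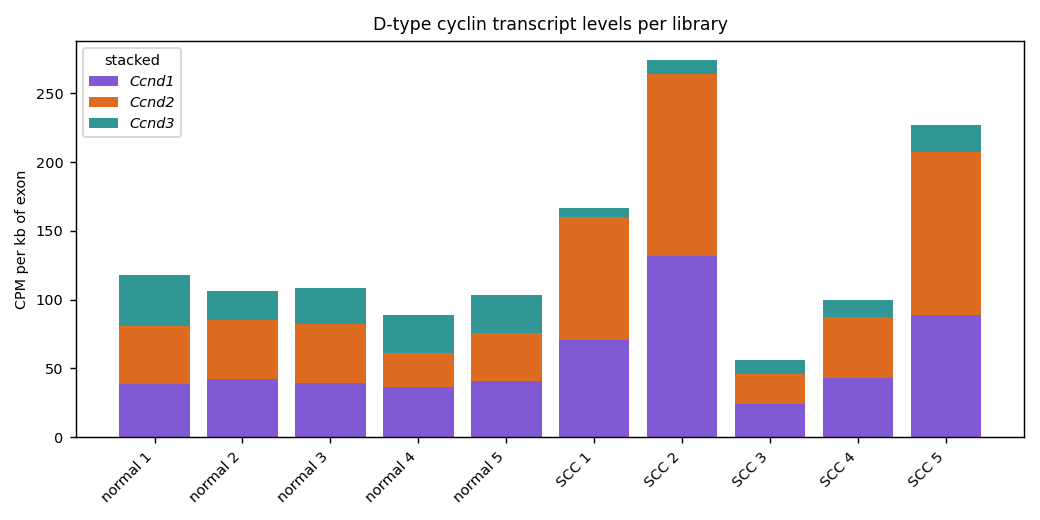
Stacked levels of Ccnd1, Ccnd2 and Ccnd3 in each library, in CPM per kb of exon. The sum is even across normal lung (88.8 to 118) and uneven in SCC (56.4 to 274), and the Ccnd3 part is thinner in every SCC library.

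Cdk4, a catalytic partner of the D-type cyclins (chromosome 10, 127063534 to 127067920, plus strand), read 29.4, 22.6, 28.6, 21.2 and 21.3 CPM in normal lung and 33.9, 37.9, 23.1, 7.97 and 45.3 CPM in SCC. SCC 1, SCC 2 and SCC 5 were above all normal libraries, SCC 3 was within them, and SCC 4, with 8 counts, was below. In SCC 1 (33.9 against 29.4 CPM in normal 1) the estimated background of 6.69 CPM was larger than the margin. Background by length made up 9.86% of the Cdk4 counts in SCC, and 90.6% in SCC 4. The log2 fold change was 0.18 (SE 0.49, n = 5 each, edgeR adjusted p = 0.844), and it changed sign when normal 2, normal 5 or SCC 5 was left out, between -0.01 and -0.10. With SCC 2 and SCC 5 alone it was 0.64 (edgeR adjusted p = 0.556). Tspan31 on the opposite strand shares 641 exon bases with Cdk4, and its log2 fold change was 0.59 (SE 0.51, edgeR adjusted p = 0.462).

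The Cdk4 promoter is shown because MYC-type factors, which bind the E-box CACGTG, are known to act on this gene and because MYC family genes were measured here. The stretch before the RefSeq start (GRCm38.p6, chr10:127063285-127063533, plus strand, 249 bases) has the E-boxes in capitals.
Cdk4: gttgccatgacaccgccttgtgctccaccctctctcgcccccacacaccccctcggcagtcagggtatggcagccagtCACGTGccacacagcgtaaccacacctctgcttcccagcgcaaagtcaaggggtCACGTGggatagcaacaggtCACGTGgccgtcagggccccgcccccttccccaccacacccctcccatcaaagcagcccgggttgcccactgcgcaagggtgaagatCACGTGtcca
The letters CACGTG, which read the same on both strands, occurred 4 times, at 172, 118, 98 and 11 bases before the start. At least 1 match was present in 6.02% of 32851 RefSeq windows of 250 bases, and 4 or more in 7 windows, or 0.0213%. Myc, whose product binds these letters with its partner MAX, was at 14.7, 9.57, 5.43, 14.7 and 1.37 CPM in normal lung and 19.8, 26.0, 31.4, 48.8 and 30.2 CPM in SCC. All SCC libraries exceeded the normal ones, a pattern of 8.81% of tested genes, with a log2 fold change of 1.64 (SE 0.61, edgeR adjusted p = 0.0558) that did not pass the test.

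Cdk6, the other catalytic partner (chromosome 5, 3341485 to 3531008, plus strand), read 42.6, 6.15, 26.4, 28.5 and 16.5 CPM in normal lung and 18.9, 73.7, 22.6, 36.8 and 60.8 CPM in SCC. SCC 2 and SCC 5 stood above all normal libraries, and the other SCC libraries lay within the normal range. The log2 fold change was 0.73 (SE 0.51, n = 5 each, edgeR adjusted p = 0.351). It was 1.36 with SCC 2 and SCC 5 alone (SE 0.58, edgeR adjusted p = 0.159) and 0.16 after background subtraction (edgeR adjusted p = 0.949). Cdk6 has the longest exon model of the 10 genes (11525 bases), and the estimated background exceeded its measured level in SCC 1 (37.6 against 18.9 CPM), SCC 3 (38.0 against 22.6) and SCC 4 (40.5 against 36.8). The estimate was therefore too high for this gene in those libraries. In SCC 2 and SCC 5 it was 6.81 and 4.82 CPM. Per length, Cdk4 was the larger of the kinases in every library, with 79.5% to 95.4% of their sum in normal lung and 54.8% to 91.0% in SCC. The lowest share, in SCC 4, rests on 8 Cdk4 counts beside an estimated background of 7.25, and Cdk6 was below its estimate there.

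**Figure D3:**
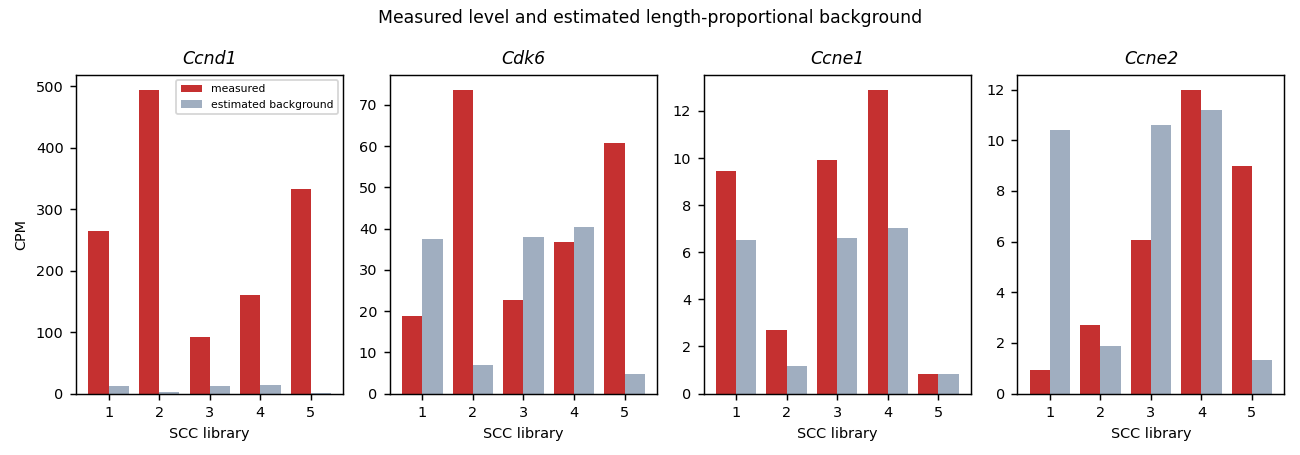
Measured level (red) and estimated background in proportion to exon length (grey) in the 5 SCC libraries, in CPM, for Ccnd1, Cdk6, Ccne1 and Ccne2; vertical axes start at 0 and differ between panels. The background is small beside Ccnd1 in every library, and reaches or exceeds Cdk6 and Ccne2 in SCC 1, SCC 3 or SCC 4.

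The E-type cyclins, which bind CDK2 at the entry into S phase, were near the limit of detection. Ccne1 (chromosome 7, 38097984 to 38107534, minus strand) had 0, 1, 5, 6 and 3 counts in normal lung and 10, 10, 18, 13 and 2 counts in SCC. That is 0 to 2.31 CPM in normal lung and 0.817 to 12.9 CPM in SCC, with SCC 5 inside the normal range. Pooled over libraries, Ccne1 had 15 counts in normal lung, or 0.992 CPM (exact 95% Poisson interval 0.555 to 1.64), and 53 in SCC, or 5.29 CPM (3.96 to 6.92). These intervals cover counting error only. Of the 53 SCC counts, 32.4 were estimated background, and in SCC 2 and SCC 5 together 12 counts stood beside an estimate of 6.41.

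Ccne2 (chromosome 4, 11191351 to 11204779, plus strand) had 0, 5, 3, 0 and 7 counts in normal lung and 1, 10, 11, 12 and 22 counts in SCC. A count of 0 allows up to 1.07 CPM in normal 1 and 1.16 CPM in normal 4, on a limit of 3 counts. The pooled level was 0.992 CPM in normal lung (15 counts, 0.555 to 1.64) and 5.59 CPM in SCC (56 counts, 4.22 to 7.26), with 51.8 of the SCC counts estimated as background. In SCC 2 and SCC 5 together 32 counts stood beside an estimate of 10.3. Without the filter on low counts, the log2 fold change was 1.93 for Ccne1 (edgeR adjusted p = 0.187) and 1.41 for Ccne2 (edgeR adjusted p = 0.336). In SCC 1, SCC 3 and SCC 4 together, Ccne1 had 41 counts beside an estimate of 26.0 and Ccne2 had 24 beside 41.5, an estimate that was too high for Ccne2 in these libraries.

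E2f1, the E2F factor that RB restrains (chromosome 2, 154559407 to 154569892, minus strand), varied widely in both groups. It read 2.86, 0.684, 3.67, 34.7 and 7.55 CPM in normal lung and 117, 13.3, 25.3, 7.97 and 9.39 CPM in SCC. The groups overlapped: normal 4 exceeded every SCC library except SCC 1, while all 5 SCC libraries were above the normal median. The log2 fold change was 1.59 (SE 0.82, n = 5 each, edgeR adjusted p = 0.185). A single library on each side set its size, since it was 2.91 without normal 4 (edgeR adjusted p = 0.0154) and 0.29 without SCC 1 (edgeR adjusted p = 0.87). With SCC 2 and SCC 5 alone it was 0.00 (SE 1.12, edgeR adjusted p = 1.0), and with the receptor signal as a covariate it was -1.26 (edgeR adjusted p = 0.774). Without normal 4, no normal library exceeded 7.55 CPM, and E2f1 passed the filter on low counts mainly through SCC libraries. Background by length made up 20.4% of the E2f1 counts over all SCC libraries, 8.79% in SCC 1 and 41.1% in SCC 3, and in SCC 4 the estimate (11.1 counts) exceeded the 8 counts measured.

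Cdkn2a and Cdkn2b lie side by side on chromosome 4 (89274471 to 89294653 and 89306299 to 89311039, both on the minus strand). Cdkn2a makes p16Ink4a, an inhibitor of CDK4 and CDK6, from its inner first exon (89281986 to 89282192) and p19Arf, which shields p53 from MDM2, from its outer first exon (89294334 to 89294653). The count table has 1 row for the gene, so the products cannot be told apart here. Both promoters are printed because they show what that row merges. The upstream stretches are from RefSeq (GRCm38.p6, minus strand, written in the direction of transcription), for Arf at chr4:89294654-89294869 and for Ink4a at chr4:89282193-89282442, with E2F-type letters in capitals.
Cdkn2a, Arf start: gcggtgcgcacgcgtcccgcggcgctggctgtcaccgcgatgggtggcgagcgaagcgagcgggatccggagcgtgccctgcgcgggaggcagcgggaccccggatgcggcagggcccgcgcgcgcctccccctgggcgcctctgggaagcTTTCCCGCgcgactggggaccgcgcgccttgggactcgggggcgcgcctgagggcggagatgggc
Cdkn2a, Ink4a start: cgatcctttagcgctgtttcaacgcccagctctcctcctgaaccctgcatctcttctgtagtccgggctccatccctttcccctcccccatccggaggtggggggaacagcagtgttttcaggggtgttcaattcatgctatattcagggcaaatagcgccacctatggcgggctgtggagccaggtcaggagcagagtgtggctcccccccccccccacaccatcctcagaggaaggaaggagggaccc
The letters searched on both strands were TTTCCCGC, TTTCGCGC, TTTGGCGC and TTTGCCGC, which 1.86% of the 32851 windows of 250 bases hold. The Arf stretch has 1 match, 99 bases before the RefSeq start, and the Ink4a stretch has none of these letters.

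Cdkn2a read 11.8, 1.37, 0.147, 1.16 and 0.686 CPM in normal lung and 14.1, 13.3, 9.36, 11 and 12.7 CPM in SCC. The SCC libraries were the tightest of any gene in the set, with a coefficient of variation of 15.9%. They held only 11 to 49 counts each, and this spread was not tested against counting error. Estimated background was 27.0%, 41.3% and 37.6% of the counts in SCC 1, SCC 3 and SCC 4. In SCC 2 and SCC 5 it was 5.22% and 3.87%. In normal lung, normal 1 held 33 of the 40 counts and lay inside the SCC range, and the other normal libraries had 1 to 3 counts each. The log2 fold change was 1.88 (SE 0.93, n = 5 each, edgeR adjusted p = 0.159), and it was 3.62 without normal 1 (edgeR adjusted p = 0.0137), where 12.4% of genes were called higher. Without normal 1, no normal library exceeded 1.37 CPM. Cdkn2a then passed the filter on low counts through SCC libraries only and could hardly be called lower. The log2 fold change was 2.0 with SCC 2 and SCC 5 alone (edgeR adjusted p = 0.359) and 1.96 after background subtraction (edgeR adjusted p = 0.241). Background by length made up 15.4% of the 123 SCC counts. In no SCC library was Cdkn2a listed at 0.

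Cdkn2b, which encodes the related inhibitor p15Ink4b, read 13.6, 4.10, 15.5, 30.9 and 6.86 CPM in normal lung and 37.7, 37.1, 28.6, 23.9 and 7.76 CPM in SCC. SCC 1 and SCC 2 exceeded every normal library, and SCC 5 lay in the lower part of their range. The log2 fold change was 0.76 (SE 0.60, n = 5 each, edgeR adjusted p = 0.417), and none of the 20 alternative settings brought it past the threshold (adjusted p 0.119 to 0.816). The SCC libraries ranked alike for both INK4 genes at the top, with SCC 1 and then SCC 2, and differed below. The top places were close for both genes. For Cdkn2a they were 14.1 and 13.3 CPM, from 15 and 49 counts.

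**Figure D4:**
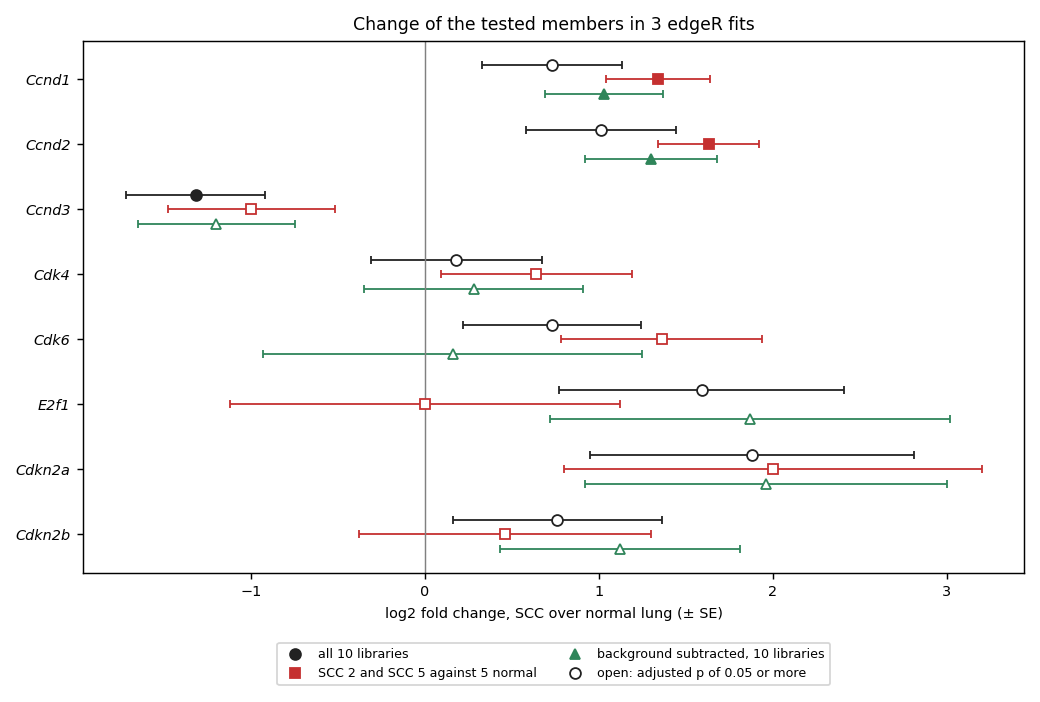
Log2 fold change of SCC over normal lung with its standard error for the 8 tested genes, from all 10 libraries (black), from SCC 2 and SCC 5 against 5 normal libraries (red) and after background subtraction (green). Filled symbols have an adjusted p under 0.05: Ccnd3 in the first fit, Ccnd1 and Ccnd2 in the others.

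Ranked by mean level per kb of exon, normal lung held Ccnd1 (39.6 ± 2.18 CPM per kb, SD, n = 5), Ccnd2 (37.4 ± 7.62) and Ccnd3 (28.0 ± 5.74) at the top, with overlapping ranges. All of them were above Cdk4 (12 ± 1.97) in every normal library. Cdkn2b followed (10.2 ± 7.51), and E2f1, Cdkn2a and Cdk6 lay between 2.09 and 3.14 with ranges that overlapped. Ccne1 and Ccne2 were lowest, at 0.579 and 0.541. In SCC the order was Ccnd2 (81.1 ± 47.4), Ccnd1 (71.7 ± 41.8), Cdkn2b (19.4 ± 8.81), Cdk4 (14.4 ± 7.08), Ccnd3 (11.9 ± 4.71), E2f1 (11 ± 14.8), Cdkn2a (10.3 ± 1.63), Cdk6 (3.69 ± 2.08), Ccne1 (3.58 ± 2.58) and Ccne2 (1.92 ± 1.40). The neighbours in that order overlapped, except that Cdkn2a lay above Cdk6 in all 5 libraries without overlap. These means include the background by length, estimated at 3.26, 3.3 and 3.52 CPM per kb in SCC 1, SCC 3 and SCC 4. That is close to the SCC means of Cdk6 and Ccne1 and above that of Ccne2, so the order of the lowest genes is uncertain. Ccnd3 went from the third place in normal lung to the fifth in SCC.

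The profile most like that of Ccnd1 over the 10 libraries was that of Ccnd2 (Pearson r = 0.96 of log2 CPM, out of 13092 other tested genes whose mean was 5 CPM or more). The next were Tmem43 and Rps15a, at 0.92 each, and for Ccnd2 they were Tmem43 (0.94) and Spint2 (0.93). The genes most like Ccnd3 were Zfand3, Slc43a2 and Dpp8, each at 0.96. For Cdk4 the highest was Nus1 (0.94), for Cdk6 Tubb6 (0.93), for E2f1 Rtn1 (0.92), for Cdkn2a Lmf1 (0.93) and for Cdkn2b Ccdc71 (0.94). All values of a library share its depth and group, so these figures describe likeness across 10 libraries only.

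The other genes of the pathway were taken from lists of 78 genes, of which 66 were tested, 14 were called higher and 5 lower. Their median log2 fold change was 0.44, beside 0.07 over all tested genes, and the called shares of all genes were 12.5% and 8.68%. With SCC 2 and SCC 5 alone 1 was called higher and 3 lower of 72, where 4.14% and 5.16% of all genes were called. After background subtraction 7 were called higher and 4 lower of 56, where 8.03% and 6.79% of all genes were called. With the receptor signal as a covariate the 1 pathway gene called was Rrm1, a ribonucleotide reductase gene named here after its value was seen, and none of the pathway genes called from the 10 libraries kept its call. Among genes that E2F factors are known to drive in S phase, 7 of 17 tested were called higher and none lower, with a median of 1.14. With SCC 2 and SCC 5 alone 1 of 21 was called higher (4.14% of all genes), and after background subtraction 4 of 15 (8.03% of all genes). The genes called from all 10 libraries were Cdc6 and the helicase genes Mcm5, Mcm7 and Mcm10, the nucleotide synthesis gene Tyms, Uhrf1 and Mybl2. Single libraries ended some of these calls: Mcm5 lost its call without normal 1, normal 2, normal 4 or SCC 5 (edgeR adjusted p up to 0.178), and Mcm7 without normal 1, normal 2, normal 4, normal 5, SCC 1, SCC 3 or SCC 4 (up to 0.21). Mcm10 and Mybl2 lost theirs without SCC 1 (edgeR adjusted p = 0.0583 and 0.0512). Tyms, thymidylate synthase, rose from 18.3 to 43.9 CPM in normal lung to 442, 119, 491, 570 and 105 CPM in SCC 1 to SCC 5 (log2 fold change 3.27, SE 0.49, edgeR adjusted p = 3.11e-05). All SCC libraries were above normal lung, and with SCC 2 and SCC 5 alone it still rose (1.65, edgeR adjusted p = 0.0273). Its highest values were in SCC 1, SCC 3 and SCC 4, the libraries of high receptor signal, and with that signal as a covariate its log2 fold change was 0.02 (edgeR adjusted p = 0.992). Cdc6, a licensing factor, had 16 counts in normal lung and 177 in SCC (4.41, SE 0.92, edgeR adjusted p = 0.00102), with 43.7% of the SCC counts estimated as background. At no more than 1.79 CPM in normal lung and 9.8 or more in SCC, Cdc6 passed the filter on low counts through SCC libraries only. Mcm10, Mybl2 and Uhrf1, with normal medians of 1.79, 2.15 and 2.73 CPM, passed it mainly through SCC libraries. Like Cdc6, these genes could therefore hardly be called lower, and all of them are among the genes counted as higher above. Markers of proliferating cells moved alongside, from 41.7 to 87.0 CPM in normal lung to 172 to 680 in SCC, with 6 of 8 called higher. Their part in these results was not tested.

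Among the other E2F factors, 3 of 9 were called higher and 1 lower, where 12.5% and 8.68% of all genes were called. E2f3, an activator, read 5.01, 22.6, 9.97, 13.1 and 3.43 CPM in normal lung and 64.1, 41.2, 41.3, 40.8 and 33.1 CPM in SCC, and rose by 1.89 on the log2 scale (SE 0.54, edgeR adjusted p = 0.0124). Its SCC libraries were all above normal lung. E2f7, a repressor, rose by 4.05 (SE 0.81, edgeR adjusted p = 0.000622), and E2f8, its relative, by 1.83 (SE 0.63, edgeR adjusted p = 0.04). E2f7, at no more than 3.22 CPM in normal lung and 5.72 or more in SCC, passed the filter on low counts through SCC libraries only and could hardly be called lower. Background by length made up 53.5% of the E2f7 counts in SCC, and none of the 3 was called with SCC 2 and SCC 5 alone (edgeR adjusted p 0.154 to 0.317). After background subtraction E2f3 and E2f8 did not pass (edgeR adjusted p = 0.0519 and 0.0935). E2f3 lost its call without normal 1 or normal 5 (edgeR adjusted p up to 0.0581), and E2f8 without normal 1, normal 3, normal 4, SCC 1, SCC 3, SCC 4 or SCC 5 (up to 0.116). E2f2 did not pass (0.22, SE 0.62, edgeR adjusted p = 0.849). Tfdp2, a dimer partner of E2F, fell from 100 to 154 CPM to 32.3 to 64.1 CPM (-1.38, SE 0.35, edgeR adjusted p = 0.00527), also with SCC 2 and SCC 5 alone (-1.57, edgeR adjusted p = 0.0169).

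Of the pocket proteins that hold E2F in check, Rbl2 was called lower (-1.12, SE 0.39, edgeR adjusted p = 0.039), with 46.0 to 136 CPM in normal libraries and 29.2 to 53.6 in those of SCC. That call was lost in 9 of 20 alternatives, among them SCC 2 and SCC 5 alone (edgeR adjusted p = 0.275), background subtraction (0.0815) and leaving out normal 1, normal 3, SCC 1, SCC 3 or SCC 4 (0.0601 to 0.127), and the direction turned with the covariate (0.06, edgeR adjusted p = 0.977). Rb1 read 52.1 to 91.4 CPM in normal libraries and 35.9 to 70.4 in those of SCC (-0.69, SE 0.36, edgeR adjusted p = 0.185), and Rbl1 gave 0.45 (SE 0.46, edgeR adjusted p = 0.548). None of the 5 other CDK inhibitors was called. Cdkn1a, the p53 target p21, read 6.84 to 62.4 CPM in normal libraries and 43.7 to 158 in those of SCC (1.30, SE 0.49, edgeR adjusted p = 0.0623). Cdkn2c, an INK4 gene outside the set, gave 1.36 (edgeR adjusted p = 0.255), Cdkn2d -0.89 (edgeR adjusted p = 0.535), Cdkn1b 0.13 (edgeR adjusted p = 0.882) and Cdkn1c -0.68 (edgeR adjusted p = 0.606). Cdk2, the kinase of the E-type cyclins, gave 0.90 (SE 0.67, edgeR adjusted p = 0.378) at 4.65 to 12 CPM in normal libraries and 8.48 to 18.9 in those of SCC.

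Skp2, which marks the inhibitor p27 for degradation, rose by 2.89 (SE 0.86, edgeR adjusted p = 0.0172), and 53.8% of its SCC counts were estimated background. Ccnb1, the mitotic cyclin B1, rose by 3.79 (SE 1.02, edgeR adjusted p = 0.00844), and Mycl, a MYC family gene, by 2.19 (SE 0.61, edgeR adjusted p = 0.0105). Skp2 and Ccnb1, with normal medians of 2.05 and 0 CPM, passed the filter on low counts mainly through SCC libraries and could hardly be called lower. Skp2, Ccnb1 and Mycl did not pass with SCC 2 and SCC 5 alone (edgeR adjusted p = 0.225, 0.135 and 0.154). Cdk7, the kinase that activates other CDKs, read 376, 122, 783, 687 and 46.5 CPM in SCC 1 to SCC 5 and 16.4 to 67.3 CPM in normal lung, and rose by 3.37 (SE 0.58, edgeR adjusted p = 0.000148). Its highest values were in SCC 1, SCC 3 and SCC 4, the libraries of high receptor signal, and background by length was 1.05% of its SCC counts. With SCC 2 and SCC 5 alone its log2 fold change was 1.09 (edgeR adjusted p = 0.231). With the receptor signal as a covariate it was -0.0 (edgeR adjusted p = 0.999), a fit in which group and signal are hard to tell apart. The cause of the difference was not tested. Of the regulators of the INK4 locus, Cbx7, a Polycomb subunit, and the repressors Tbx2 and Tbx3 were called lower of 12 tested and none was called higher. Over all genes, 8.68% were called lower and 12.5% higher. Tbx3 fell from 80.3 to 180 CPM in normal lung to 14.3 to 76.4 CPM in SCC (-2.16, SE 0.42, edgeR adjusted p = 0.000483), and Tbx2 from 95.7 to 151 CPM to 18.8 to 74.8 (-1.63, SE 0.39, edgeR adjusted p = 0.00348). Both were also called with SCC 2 and SCC 5 alone, at -2.95 and -1.54 (edgeR adjusted p = 0.000197 and 0.04), whereas Cbx7, which fell by 1.46 over all 10 libraries (SE 0.48, edgeR adjusted p = 0.0287), did not pass there (edgeR adjusted p = 0.171) or without SCC 3 (0.0502).

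**Figure D5:**
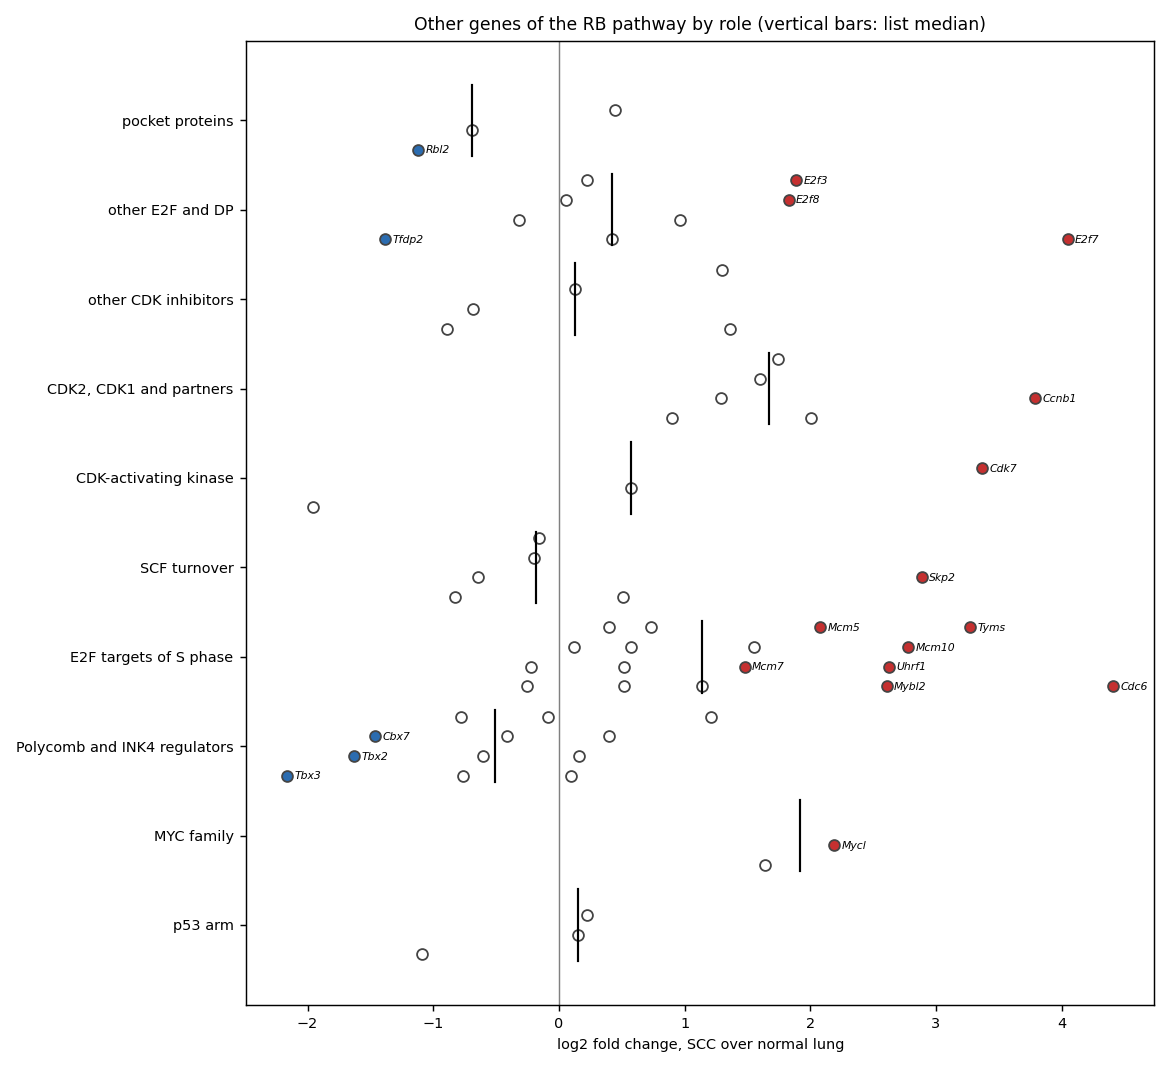
Log2 fold change of SCC over normal lung for the 66 tested pathway genes, 1 point per gene, by role; points are offset vertically for legibility only. Filled points have an adjusted p under 0.05, with 14 higher (red) and 5 lower (blue), and a vertical bar marks each list's median.

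Neighbours on the chromosome were read beside both loci. Around Ccnd1, 6 of 8 genes were tested, with a median log2 fold change of 0.31. Fgf4 was called higher (4.30, SE 0.95, edgeR adjusted p = 0.00167) on 8 counts in normal lung and 140 in SCC, and Ano1 was called lower (-1.04, SE 0.37, edgeR adjusted p = 0.0432). Fgf4, at no more than 1.37 CPM in normal lung, passed the filter on low counts through SCC libraries only and could hardly be called lower. Next to Cdkn2a and Cdkn2b, 3 genes were tested. Dmrta1 was called higher (3.11, SE 0.87, edgeR adjusted p = 0.0109) at 0.772 to 4.78 CPM in normal lung and 0.817 to 38.7 CPM in SCC. It too passed the filter mainly through SCC libraries. Over all tested genes, 12.5% were called higher and 8.68% lower. The Ano1 call was lost in 10 of 20 alternatives, among them SCC 2 and SCC 5 alone (edgeR adjusted p = 0.0952), background subtraction (0.154) and leaving out normal 3, SCC 2, SCC 3 or SCC 4 (0.074 to 0.079). Estimated background was 35.0% of the Fgf4 and 36.1% of the Dmrta1 counts in SCC, and neither passed with SCC 2 and SCC 5 alone (edgeR adjusted p = 0.0695 and 0.622). Transcript levels do not measure copy number.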

How the data were processed

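The authors deposited 1 table of raw read counts, whole numbers by gene symbol, without normalization. Per the submitters' processing notes, the tools were TopHat2 2.0.1, cutadapt 1.9.1, DESeq2 and HTSeq 0.6.1, with build mm10; annotation, strand setting and multi-mapping rules were not given in the sources used here, so genes that overlap on opposite strands (Ccnd1, Ccnd2, Ccnd3, Ccne2, Cdk4 and Cdk6 each have such a partner) are uncertain.

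Counts were fitted in R 4.3.3 with edgeR 4.0.16 (filterByExpr by group, TMM, robust quasi-likelihood test, 13203 genes, Benjamini-Hochberg over all of them); SE is the log2 fold change divided by the square root of F. CPM uses total counts. Lengths and positions came from GENCODE M21 basic (GRCm38), matching 24054 of 24421 symbols, 678 of them by an older symbol. Receptor signal is counts per kb of coding length, with genes above the 98th percentile set to it; subtracted background is that rate times exon length. RefSeq promoter windows (GRCm38.p6) were found for 7 of the 10 genes; printed parts omit GENCODE exon bases. The 5 libraries per group were numbered in accession order.

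Alternatives were upper-quartile factors, size factors from DESeq2, no filter, 1 CPM in 5 libraries, DESeq2 1.42.0, limma-voom (limma 3.58.1), no robust estimation, background subtraction, receptor signal as covariate, SCC 2 and SCC 5 only, and leaving out each library. The fit was tested on simulated counts with a fixed dispersion and no receptor background. It found 19.4% of 2-fold and 85.1% of 4-fold changes, with 7 false calls among 11651 genes. Changes of about 2-fold were thus mostly missed. All 10 genes are named; of the pathway and neighbour lists, called genes are named and 15 genes (some of them called) are named whatever their value, and for each gene the 3 most alike by Pearson correlation (log2 CPM, prior count 2) were sought. The genes, lists and several alternatives were chosen with earlier results of these data known. A pathway gene is not reported here and was left out of the lists. Total counts of 1004105 to 6817106 limit precision for genes of a few CPM.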

Additional observations from a re-analysis of the deposited data

Results flagged for a closer look

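For each of the 10 genes and 15 listed pathway genes, both groups were searched for a library that stood apart from the other 4 on the log2 CPM scale, by Dixon's criterion of 0.71. Of 50 groups, 5 held such a library, and chance flags about 1 in 20 groups. None was a group of the 10 genes themselves. Rb1 was low in normal 5, at 5.85 log2 CPM (52.1 CPM, against 73.1 to 91.4 in the other normal libraries). Cdk2 was low in SCC 1, at 3.09 log2 CPM (8.48 CPM, against 13.9 to 18.9). Cdkn1a was high in SCC 2, at 7.19 log2 CPM (158 CPM, against 43.7 to 66.6). E2f3 was high in SCC 1, at 5.88 log2 CPM (64.1 CPM, against 33.1 to 41.3), the library that also held the highest E2f1 level. Skp2 was low in SCC 5, at 2.68 log2 CPM (5.31 CPM, against 20.9 to 30.2).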

How the results depend on the processing

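No paired analysis was possible because the labels give library codes that do not match across groups, and replicate numbers follow accession order. Of the 10 genes, the count called higher was 0 and the count called lower 1. Higher counts were 1 with upper-quartile factors (Ccnd2), 2 with DESeq2 (Ccnd2, Ccne1), 2 with limma-voom (E2f1, Cdkn2a), 2 with the receptor covariate (Ccnd2, Cdk6), 2 after background subtraction and 2 with SCC 2 and SCC 5 only. Leaving out a library gave 0 to 1 higher: Cdkn2a without normal 1, E2f1 without normal 4 and Ccnd2 without SCC 3. Lower counts were 0 after background subtraction, with the covariate and with SCC 2 and SCC 5 only. Ccnd3 kept its direction in all 20 alternatives (-1.68 to -0.49), and Cdkn2a and Cdkn2b kept theirs.

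Of all genes, 1645 were higher and 1146 lower. Higher counts were 5470 without a filter, 3551 with 1 CPM in 5 libraries, 6287 with DESeq2, 3259 with limma-voom, 924 after subtraction, 466 with the covariate and 592 with SCC 2 and SCC 5 only. Lower counts were 2072 without a filter, 2766 with limma-voom, 371 with the covariate and 738 with SCC 2 and SCC 5 only. Of the 14 higher and 5 lower pathway genes, higher counts were 26 with DESeq2, 22 with limma-voom, 7 after subtraction, 1 with the covariate and 1 with SCC 2 and SCC 5 only. Lower counts were 3 with upper-quartile factors, 10 without a filter, 13 with limma-voom, 0 with the covariate and 3 with SCC 2 and SCC 5 only. Leaving out a library gave 11 to 16 higher and 3 to 7 lower, with the 3 without SCC 3. Upper-quartile factors moved the median of all genes by 0.19 on the log2 scale and the higher share of calls from 58.9% to 68.6%. The share was 72.5% without a filter, 75.6% with 1 CPM in 5 libraries, 82.1% with DESeq2 and 44.5% with SCC 2 and SCC 5 only.

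Direction turned with limma-voom for Ccnd1 (-0.18), Ccnd2 (-0.08), Cdk4 (-0.65) and Cdkn1b (-1.03), and without a filter for Cdk4 (-0.15), Cdkn1b (-0.17) and E2f2 (-0.28). With the covariate it turned for E2f1 (-1.26), Rb1 (0.22), Rbl2 (0.06), Cdkn1c (2.57), E2f2 (-3.06), Cdk7 (-0.00), Mybl2 (-0.35) and Dmrta1 (-0.99), and with SCC 2 and SCC 5 only for E2f2 (-1.83). Leaving out a library turned Cdk4 (-0.10 to 0.33), Cdkn1b (-0.23 to 0.30) and E2f2 (-0.31 to 0.45). The cause of these changes was not tested. Receptor signal did not overlap between the groups (0.0416 to 0.207 and 0.418 to 3.52 CPM per kb), so group and signal are hard to tell apart in the covariate fit. Depth limits Ccne1, Ccne2 and, in normal lung, Cdkn2a, which rest on few counts.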
